A study of Mus musculus with 16 samples.

Results

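Hif1a and 9 glycolytic enzyme genes (Hk1, Hk2, Pfkl, Pfkp, Aldoa, Gapdh, Pgk1, Eno1 and Ldha) were followed in stimulated T cells by every array probe whose platform annotation carried their symbol. Probes were found for 9 of the 10 genes, out of 16593 genes with a symbol on the array. They were 13 probes, of which 12 were detected and tested. The genes tested numbered 8480 in all. No probe used here carried the symbol or the gene identifier of Eno1, so Eno1 was not analysed here. Total RNA came from CD4+ T cells of 4 C57BL/6 mice that lacked MALT1 (genotype MALT1 deficient), the protease and scaffold that carries T cell receptor signals to NF-kB. The cells of each mouse were given isoform A of MALT1, its isoform B or mock by retrovirus and were then stimulated through CD3 and CD28 for 2.5 h, while a further portion with isoform A was left unstimulated. Each of these 4 groups held 4 arrays, 1 for each mouse, and all groups shared the MALT1 deficiency. The mock cells were all stimulated, so no unstimulated cells without MALT1 stood beside them. The share of cells that took up the virus and the age of the mice are not given in the sources used here. The study's title concerns alternative splicing of MALT1 after receptor triggering.

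Glycolysis turns glucose into pyruvate. Hexokinase traps glucose as glucose 6-phosphate, phosphofructokinase commits it to the pathway, aldolase splits the sugar, and the later enzymes gain ATP and NADH before lactate dehydrogenase restores NAD+. HIF-1α, the protein of Hif1a, is an oxygen-regulated transcription factor that pairs with ARNT and binds DNA at a short core, and many glycolytic genes are among its known targets. T cells are known to raise aerobic glycolysis after receptor and CD28 signals, with MYC and mTORC1 as further known drivers. HIF-1α is controlled mainly at the level of its protein, which these arrays did not measure.

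The 250 bases upstream of annotated starts of the members are shown where the text turns on a gene, as background to its known control. The sequences are those of RefSeq on build GRCm38.p6, and the cores ACGTG and GCGTG, on either strand, stand in capitals. The core ACGTG overlaps the E-box CACGTG, which MYC and its relatives are known to bind. The Hif1a window lies on the plus strand at chr12:73907617-73907866 and holds 3 matches to ACGTG, of which a pair is the palindrome CACGTG read on each strand. The Hk2 window lies on the minus strand at chr6:82774455-82774704 and holds 2 matches to ACGTG. The Pfkl window lies on the minus strand at chr10:78009808-78010057 and holds 1 match to GCGTG. The first Ldha window lies on the plus strand at chr7:46845554-46845803 and holds 5 matches to ACGTG. Among these, 2 palindromes CACGTG are each counted on both strands. Hif1a is shown because it passed the test between isoform A and mock, and Hk2 because it rose most. Pfkl is shown because its brighter probe differed by a like amount in every mouse, and Ldha because its difference on stimulation did not pass.
Hif1a upstream window: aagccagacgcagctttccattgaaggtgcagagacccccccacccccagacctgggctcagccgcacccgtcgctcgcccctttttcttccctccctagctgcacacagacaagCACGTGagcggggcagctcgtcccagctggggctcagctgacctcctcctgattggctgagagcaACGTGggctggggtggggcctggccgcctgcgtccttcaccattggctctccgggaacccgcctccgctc
Hk2 upstream window: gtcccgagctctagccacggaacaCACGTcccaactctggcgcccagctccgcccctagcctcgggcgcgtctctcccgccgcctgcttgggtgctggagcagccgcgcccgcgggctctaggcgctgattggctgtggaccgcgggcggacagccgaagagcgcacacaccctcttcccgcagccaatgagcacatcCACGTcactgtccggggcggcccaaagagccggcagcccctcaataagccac
Pfkl upstream window: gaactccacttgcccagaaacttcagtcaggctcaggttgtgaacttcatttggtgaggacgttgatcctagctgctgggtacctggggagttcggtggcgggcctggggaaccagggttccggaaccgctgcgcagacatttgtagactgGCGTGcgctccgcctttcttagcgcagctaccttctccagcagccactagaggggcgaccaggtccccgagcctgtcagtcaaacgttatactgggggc
Ldha upstream window: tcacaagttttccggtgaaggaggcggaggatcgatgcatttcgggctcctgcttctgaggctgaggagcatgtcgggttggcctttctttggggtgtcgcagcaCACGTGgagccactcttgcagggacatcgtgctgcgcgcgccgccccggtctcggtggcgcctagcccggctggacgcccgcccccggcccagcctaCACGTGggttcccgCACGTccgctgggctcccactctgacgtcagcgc
All 10 members, Eno1 included, matched the table, with 16 windows, and 14 of these held a core of either kind. Some windows of Aldoa and of Eno1 overlap and share the same cores, so the 16 windows are not separate. Their share was not tested against that of all windows. Over all 32817 windows of the table, 38.6% held a core of either kind, 16.6% held ACGTG, 28.1% held GCGTG and 6.02% held CACGTG. A match is a run of letters only. The windows of Hk2, which rose, and of Ldha, which did not pass the test, both held ACGTG.

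The raw median intensity lay between 121.8 and 138.8 on the 16 arrays. Between 11239 and 12085 probes were detected on unstimulated arrays and between 10247 and 11012 on stimulated ones. The brightest raw signal was 34329 to 38404 on arrays of mice 1 and 2 and 41735 to 43710 on arrays of mice 3 and 4, a split that crossed all groups. The number of arrays limits the precision. All 9 CD4 T cell markers with a probe were detected. Their summed level was 60564 to 62874 in unstimulated cells, 43081 to 49027 in stimulated isoform A cells, 44243 to 46854 in isoform B cells and 42530 to 46783 in mock cells. Of these markers 6 were lower and 0 higher on stimulation of isoform A cells, beside 34.9% of all tested probes lower and 31% higher. The part of these markers in the stimulation results was not tested. Of the CD8 and cytotoxic list 6 of 9 were detected on at least 4 arrays, with Cd8a and Ncr1 never detected. The summed level of that list was 8092 to 11749 in unstimulated isoform A cells, 7354 to 10736 in stimulated isoform A cells, 8088 to 12331 in isoform B cells and 6388 to 10363 in mock cells. Of the macrophage and dendritic cell list 1 of 6 was detected, and Lyz2, Itgam, Itgax, Cd14 and Adgre1 were never detected. The Malt1 probe was detected on 1, 1, 0 and 2 of 4 arrays in unstimulated isoform A, stimulated isoform A, isoform B and mock cells, so it did not check the reconstitution. In bulk RNA, fewer cells of a type and less RNA per cell cannot be told apart.

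Stimulation of isoform A cells was set against unstimulated isoform A cells to describe the response to CD3 and CD28. Hk2, Hk1, Pfkl and Aldoa rose, and no member fell past the test. The other 5 members (Hif1a, Pfkp, Gapdh, Pgk1 and Ldha) did not pass by their brightest probe. Of all 12344 probes tested, 66% passed the same test, 31% higher and 34.9% lower, so 4 of 9 members called was a smaller share than the background and 4 of 9 higher a larger one. Scaling set that split: 3832 probes were higher and 4314 lower here, 2440 and 5177 under median scaling over all probes, and 6027 and 3297 under median scaling over tested probes, which was added after the data were seen. The median log2 difference was 0.28 over the 9 members and -0.00031 over all probes. By brightest probe 5 of 9 members did not overlap the unstimulated arrays with isoform A, 5 with isoform B and 4 in mock cells. Of all probes, 60.9%, 61.9% and 61.4% did not overlap in these comparisons. A lack of overlap with unstimulated arrays, given for single genes below, thus does not set the members apart. All tests were limma's moderated test with Benjamini-Hochberg adjustment over all tested probes at 0.05, levels are normalized log2 intensities, and errors after ± are standard errors (SE) with n = 4 mice in each group.

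Hk2 encodes the inducible hexokinase and rose most. Its log2 level was 9.56, 9.33, 10.04 and 9.77 in unstimulated cells of mice 1 to 4, and 11.67, 11.75, 11.88 and 11.79 in stimulated isoform A cells. The isoform B values were 11.47, 11.48, 11.53 and 11.59, and the mock values 11.58, 11.60, 11.68 and 11.73. Every stimulated array lay above every unstimulated one. The difference was 2.10 ± 0.12 with isoform A, a 4.28-fold rise (adjusted p = 5.4e-11). Hk2 stood 1.84 ± 0.12 above unstimulated cells with isoform B and 1.97 ± 0.12 above them in mock cells. Its call held in all 18 other settings run for isoform A, with differences from 1.96 to 2.57.

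Hk1, the hexokinase that most cells hold without stimulation, had levels of 7.02, 7.83, 6.97 and 7.54 in unstimulated cells. After stimulation they were 7.80, 7.98, 8.05 and 7.90 with isoform A, 7.82, 7.77, 7.56 and 7.44 with isoform B, and 7.53, 7.54, 7.10 and 7.15 in mock cells. The unstimulated arrays were spread widely and overlapped all other groups. With isoform A the difference was 0.60 ± 0.17 (adjusted p = 0.0049), and all 4 mice showed it, by 0.78, 0.16, 1.09 and 0.36. It did not hold under median scaling over all probes (0.11, adjusted p = 0.69), which moved the median of tested probes by -0.21. The mock cells differed from unstimulated cells by -0.01 ± 0.17.

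Pfkl encodes the liver-type phosphofructokinase subunit, which T cells also make. The brighter of its detected probes read 9.91, 9.81, 9.66 and 9.74 in unstimulated cells and 10.49, 10.47, 10.03 and 10.34 in stimulated isoform A cells. Isoform B cells had 10.54, 10.66, 10.10 and 10.43, and mock cells had 10.85, 10.96, 10.52 and 10.74. All stimulated arrays lay above the unstimulated ones, and mouse 3 was lowest in each group. The difference was 0.55 ± 0.13 with isoform A (adjusted p = 0.0014), a 1.47-fold rise. Under median scaling over all probes this call was lost (0.43, adjusted p = 0.0703). The second Pfkl probe had log2 levels of only 5.23 to 6.33 over the 16 arrays, overlapped between all groups, and differed by 0.09 ± 0.18 (adjusted p = 0.69).

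Pfkp, the platelet-type subunit of the same enzyme, had detected probes that gave different calls. The probe with the highest mean read 10.36 to 10.88 in unstimulated cells and 10.75 to 10.95 with isoform A, and its difference of 0.28 ± 0.14 did not pass (adjusted p = 0.0877). The other detected probe read 8.28, 8.34, 8.63 and 8.28 in unstimulated cells. With isoform A it read 8.85, 9.07, 8.78 and 8.63, with isoform B 9.19, 9.05, 8.99 and 8.85, and in mock cells 8.92, 9.07, 9.34 and 9.13. Its difference passed with isoform A at 0.45 ± 0.12 (adjusted p = 0.0032) and was lost under median scaling over all probes (0.09, adjusted p = 0.73). A further Pfkp probe was detected on 0 of 16 arrays and was not tested.

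Aldoa, the muscle-type aldolase that is also made in most tissues, had levels of 11.63, 11.69, 11.73 and 11.74 before stimulation. They were 11.98, 12.10, 11.90 and 11.98 with isoform A, 12.10, 12.05, 11.79 and 11.77 with isoform B, and 11.98, 12.05, 12.02 and 11.84 in mock cells. The groups did not overlap with the unstimulated arrays, but the rise was small, at 0.29 ± 0.09 or 1.22-fold with isoform A (adjusted p = 0.0099). In isoform B cells the rise of 0.23 ± 0.09 (adjusted p = 0.0375) was lost when any of 6 arrays was left out (each unstimulated array, or that of isoform B cells of mouse 1 or 2), with adjusted p from 0.0509 to 0.13. Under median scaling over all probes the isoform A call held (adjusted p = 0.0478) and those of mock (0.36, adjusted p = 0.0859) and isoform B (0.27, adjusted p = 0.20) were lost.

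Hif1a had levels of 8.34, 8.55, 8.33 and 8.35 in unstimulated cells of mice 1 to 4. In stimulated isoform A cells they were 9.04, 9.01, 8.33 and 8.18. Mice 1 and 2 were thus above every unstimulated array and mice 3 and 4 were not. With isoform B the levels were 9.22, 9.15, 9.03 and 9.24, and in mock cells 9.55, 9.33, 9.64 and 9.19, all above the unstimulated range. Stimulated isoform A cells differed from unstimulated ones by 0.25 ± 0.17 (adjusted p = 0.21), while isoform B cells differed by 0.77 ± 0.17 (adjusted p = 0.00062) and mock cells by 1.04 ± 0.17 (adjusted p = 3.2e-05), a 2.05-fold rise. Without the stimulated isoform A array of mouse 4 the isoform A difference passed, at 0.40 (adjusted p = 0.0323), and it also passed under median scaling over tested probes, at 0.43 (adjusted p = 0.0348). Under median scaling over all probes the isoform A value of Hif1a was below 0, at -0.12 (adjusted p = 0.70), the isoform B difference was lost (0.38, adjusted p = 0.18), and the mock difference held at 0.71 (adjusted p = 0.0125).

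The tested members that act after aldolase (Gapdh, Pgk1 and Ldha) gave no difference past the test. This does not hold for all later enzymes, since Pgam1, which is not a member, rose (below). Gapdh, the dehydrogenase whose message is a common loading reference, read 13.92 to 14.06 before stimulation and 13.80 to 13.98 with isoform A by its brighter probe. Ldha, the lactate dehydrogenase subunit favoured in fast glycolysis, read 13.67 to 13.68 before stimulation and 13.46 to 13.64 with isoform A. Their differences were -0.10 ± 0.08 (adjusted p = 0.29) and -0.13 ± 0.07 (adjusted p = 0.13). Both changed sign under either median scaling. Over all probes Gapdh became 0.08 (adjusted p = 0.695) and Ldha 0.11 (adjusted p = 0.53), neither passing. Over tested probes they became 0.62 for Gapdh and 0.66 for Ldha, so the direction of neither gene is settled here. The scaling over tested probes moved the median of all tested probes by 0.34. Raw Gapdh signals were 29.1% to 54% of the brightest signal on their array and Ldha signals 24.5% to 41.5%, with 51 to 81 and 86 to 114 probes brighter. Pgk1, the first enzyme of the pathway to return ATP, was dim and was detected on 4, 1, 3 and 3 of 4 arrays in unstimulated, stimulated isoform A, isoform B and mock cells. Its difference with isoform A was -0.34 ± 0.23 (adjusted p = 0.22).

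Mock and isoform B cells were read against the same unstimulated isoform A cells. Stimulated mock cells differ from these in stimulation and in isoform A, which cannot be told apart. The comparison of isoform B was added after the data were seen. In each case 4 of 9 members rose (Hif1a, Hk2, Pfkl and Aldoa) and 0 fell, beside 65.3% of probes called for mock (31% higher) and 65.5% for isoform B (30.7% higher). The split of 3823 higher and 4241 lower for mock became 2355 and 5069 under median scaling over all probes and 5972 and 3251 under that over tested probes. For isoform B it went from 3794 and 4290 to 2247 and 5231 and to 6018 and 3274. All of these comparisons share the unstimulated arrays. By its brighter probe Pfkl differed by 0.98 ± 0.13 in mock cells and 0.66 ± 0.13 in isoform B cells. The second Pfkp probe differed by 0.73 ± 0.12 and 0.64 ± 0.12. Under median scaling over all probes these Pfkp differences became 0.39 (adjusted p = 0.0871) and 0.24 (adjusted p = 0.31). The brightest Pfkp probe passed in neither comparison, with means of 10.58 in unstimulated, 10.83 in mock and 10.79 in isoform B cells. Nor did the second, dimmer Pfkl probe, with means of 5.55, 5.73 and 5.92.

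**Figure D1:**
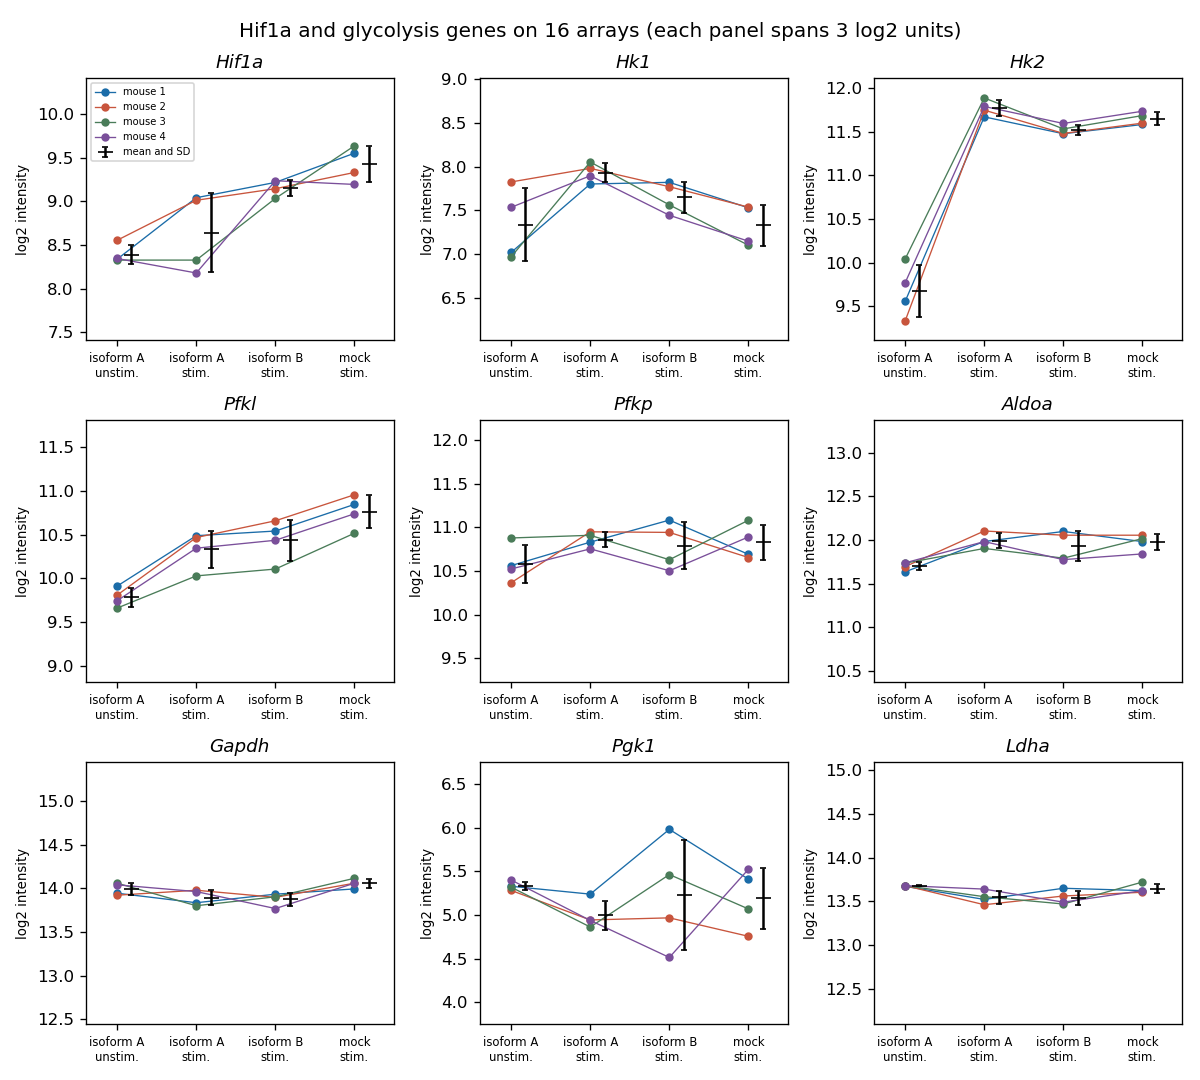
Normalized log2 intensity (vertical axis, 3 log2 units in every panel) of the brightest detected probe of each of the 9 members in the 4 groups (horizontal axis). Coloured points joined by lines are the 4 mice, and black marks are the mean and SD of n = 4 arrays. Hk2 sits between 9.33 and 10.04 before stimulation and between 11.47 and 11.88 after it, and Hif1a in stimulated isoform A cells splits into 9.01 to 9.04 and 8.18 to 8.33.

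**Figure D2:**
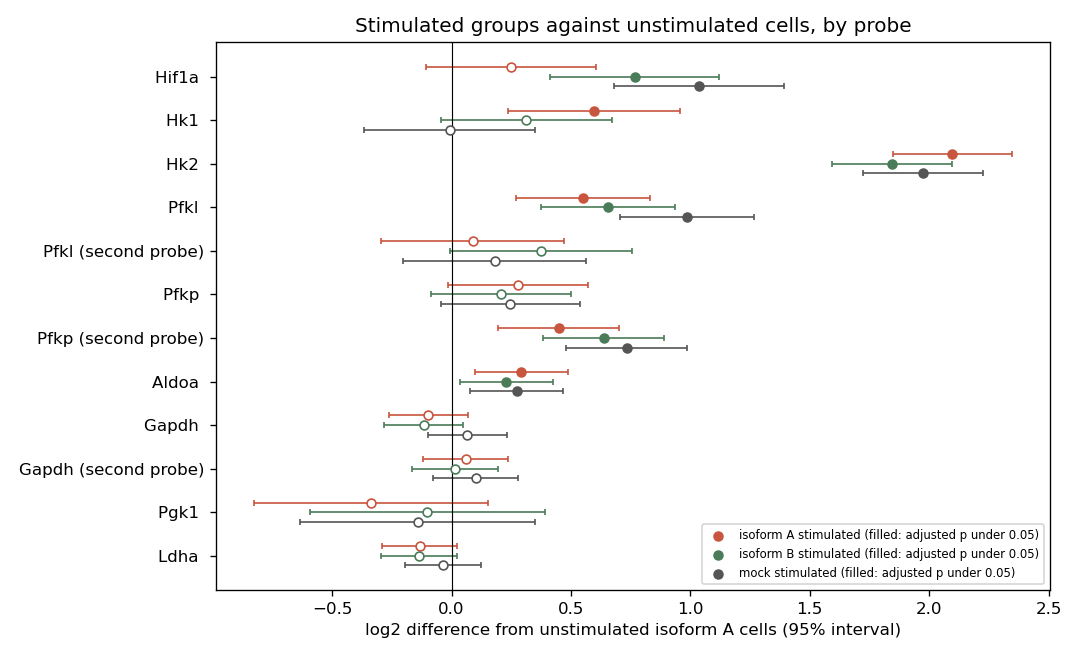
Log2 difference (horizontal axis) of each stimulated group from unstimulated isoform A cells for the 12 tested probes (vertical axis), with 95% intervals from the model of 4 group means. Filled points passed the test. The Hk2 points lie at 2.10, 1.84 and 1.97, and the Gapdh and Ldha intervals all include 0.

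Isoform A was set against mock in stimulated cells to show what the isoform changed. Hif1a was lower with isoform A, and it was the only member of 9 past the test, while 4.12% of all probes were called and 1.78% were lower past the test. The difference was -0.79 ± 0.17 (adjusted p = 0.0137), a 1.73-fold lower level with a 95% interval of -1.14 to -0.43. All 4 mice showed it, by -0.51, -0.32, -1.31 and -1.01, and the isoform A range (8.18 to 9.04) did not overlap the mock range (9.19 to 9.64). Within mice 1 and 2 the mean difference was -0.41, and within mice 3 and 4 it was -1.16. The call was lost without the isoform A array of mouse 3 (-0.68, adjusted p = 0.0541), in a model of these 2 groups alone (adjusted p = 0.11) and under median scaling over all probes (-0.83, adjusted p = 0.0986). In the model that also holds the mouse, the adjusted p was 0.0077.

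Some markers of other cell types differed in the same contrast. Hba-a1, a haemoglobin chain, lay between 6.32 and 9.87 on mock arrays and between 5.58 and 6.40 on isoform A arrays. Car2, a carbonic anhydrase of the erythroid and granulocyte list, lay between 6.34 and 6.84 on mock arrays and between 5.21 and 6.39 on isoform A arrays. Car2 was detected on 0 of 4 unstimulated arrays and 4 of 4 of each stimulated group, so its level also differed with stimulation. The summed level of the erythroid and granulocyte list, with 2 of 7 genes detected on at least 4 arrays, was 195 to 1053 in mock, 86.9 to 143 in isoform A, 87 to 112 in isoform B and 57.5 to 94.4 in unstimulated cells. Alas2, S100a8, S100a9 and Mpo were never detected. The B cell list, with 4 of 7 detected, summed to 198 to 282 in mock, 515 to 938 in isoform A, 320 to 1646 in isoform B and 260 to 407 in unstimulated cells, with Blnk never detected. Cd74 and H2-Ab1 of that list, which serve antigen presentation, were higher with isoform A than in mock by 1.65 ± 0.36 (adjusted p = 0.0168) and 1.52 ± 0.33 (adjusted p = 0.0156). The other 2 tested genes of the list did not pass. One of these, Cd79b, was detected on 0 of 4 arrays in stimulated isoform A cells and 0 of 4 in mock cells. The summed level thus does not show a change of B cells as such. The part of these markers in the Hif1a difference was not tested.

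Hk1 and Pfkl did not pass between isoform A and mock, and each passed in some other settings. Hk1 was 7.80 to 8.05 with isoform A and 7.10 to 7.54 in mock cells, with no overlap. Its difference of 0.60 ± 0.17 did not pass (adjusted p = 0.0546) and passed once the mouse entered as a block, at an adjusted p of 0.0292, one of 5 of 18 other settings in which it did. Pfkl was 10.03 to 10.49 against 10.52 to 10.96, also without overlap. Its difference of -0.43 ± 0.13 (adjusted p = 0.0809) was close to the same size in every mouse, at -0.36, -0.49, -0.49 and -0.39, and passed with the block at an adjusted p of 0.0038, and in 3 of 19 other settings in all. These values are of the brighter Pfkl probe. The second, dimmer Pfkl probe differed by only -0.09 (means of 5.64 and 5.73) and did not pass. With the block, 1 member was higher and 2 were lower, while 947 of all 12344 probes were called, beside 509 without it. By brightest probe 4 of 9 members did not overlap between these groups (Hif1a, Hk1, Pfkl and Gapdh), beside 9.5% of all probes. Hk2, which rose with stimulation, differed between isoform A and mock by 0.12 ± 0.12, with an interval of -0.13 to 0.37 (adjusted p = 0.64).

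Isoform B against mock gave 0 of 9 members past the test, beside 1.48% of all probes (183 of 12344, and 1406 at an unadjusted p under 0.05). Of those called, 92 were higher and 91 lower, and 27 and 53 under median scaling over all probes. Hif1a differed by -0.27 ± 0.17, with an interval of -0.62 to 0.08 (adjusted p = 0.61), and was lower in 3 of 4 mice. By its brighter probe Pfkl was lower in all 4 mice, by -0.31, -0.30, -0.41 and -0.30. Its difference of -0.33 ± 0.13 (adjusted p = 0.32) passed with the block at an adjusted p of 0.0309. The second, dimmer Pfkl probe went the other way, by 0.19 (means of 5.92 with isoform B and 5.73 in mock), and did not pass. Hk1 was higher in 4 of 4 mice by 0.32 ± 0.17 (adjusted p = 0.51).

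A direct comparison of isoform A with isoform B gave 0 of 9 members past the test, beside 0.138% of all probes (17 probes, and 1234 at an unadjusted p under 0.05). Hif1a was lower with isoform A in 4 of 4 mice, by -0.52 ± 0.17 (adjusted p = 0.28), and the groups overlapped. Hk2 was higher with isoform A in 4 of 4 mice by 0.25 ± 0.12 (adjusted p = 0.49), and here the groups did not overlap, as for 3.96% of all probes. Means of Hif1a ran 8.39 in unstimulated isoform A cells, 8.64 in stimulated isoform A cells, 9.16 with isoform B and 9.43 in mock cells. In that order, stimulated isoform A did not differ past the test from unstimulated isoform A or from isoform B, nor isoform B from mock.

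**Figure D3:**
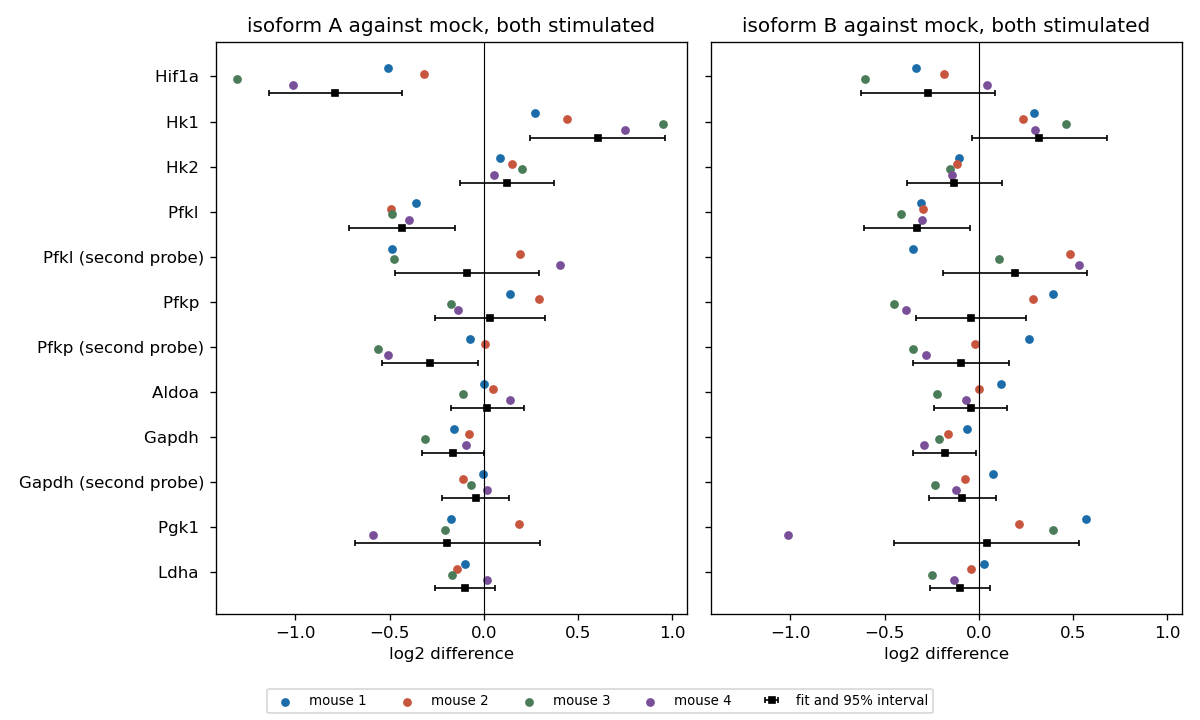
Log2 difference from stimulated mock cells (horizontal axis) for the 12 tested probes (vertical axis), for isoform A on the left and isoform B on the right. Coloured points are the 4 mice, and black squares are the model's estimate with its 95% interval. The points of the brighter Pfkl probe lie between -0.49 and -0.36 for isoform A and between -0.41 and -0.30 for isoform B. Those of Hif1a for isoform A spread from -1.31 to -0.32.

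Over the 12 stimulated arrays, the named genes most like Hif1a in level by Pearson's r were Elf2 (0.957), Ppp1cb (0.956), Ptprc (0.950), Usp9x (0.940) and Trim56 (0.924). The most opposite were Scaf1 (-0.948), Prrc2a (-0.940) and Ncdn (-0.930). The arrays of a mouse share its cells and all 12 share the group differences, so these values are descriptions. Of those with further detected probes, Ppp1cb, a phosphatase catalytic subunit, agreed between its probes (r of 0.956 and 0.936). Ptprc, the leukocyte phosphatase CD45, did not. Its standing probe had r of 0.950 with Hif1a and its other probe -0.492, and the differences of isoform A from mock were -0.74 ± 0.19 and 0.17 ± 0.16. The probes of Ncdn gave -0.930, -0.895, -0.389 and -0.314. Those of Elf2, an ETS family factor, gave r of 0.957, 0.546 and -0.398. Among the members, r with Hif1a was 0.65 for Pfkl, -0.61 for Hk2 and -0.69 for Hk1. Over all 16 arrays, r was 0.07 for Elf2, 0.89 for Ppp1cb, 0.96 for Ptprc, 0.92 for Usp9x and 0.52 for Trim56. It was -0.91 for Scaf1, 0.10 for Prrc2a and 0.22 for Ncdn. The values of Elf2, Prrc2a and Ncdn given first thus hold for the stimulated arrays only.

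The remaining steps of glycolysis and of glucose and lactate transport moved both ways on stimulation. Of 15 tested genes of 32 listed, 6 rose and 4 fell with isoform A, with a median of 0.08. Of all probes, 31% were higher and 34.9% lower past the same test. Pgam1, the mutase before enolase, rose by 1.37 ± 0.10 (adjusted p = 8.6e-10). Tigar, which lowers fructose 2,6-bisphosphate, was not detected in unstimulated cells and was at least 1.74-fold higher with isoform A (adjusted p = 0.00011); such a bound sets the bright group's mean against the dimmest detected signal of each dim array. Pfkm, the muscle-type phosphofructokinase subunit, fell by 1.86 ± 0.11 (adjusted p = 1e-10), and its other detected probes gave -1.70 and -0.34. Pfkfb4, which sets the level of fructose 2,6-bisphosphate, fell by 1.66 ± 0.18 (adjusted p = 3.3e-07). Among the phosphofructokinase subunits, Pfkm thus fell, Pfkl rose by its brighter probe only, and the Pfkp probes gave different calls. The Pfkl call was lost under median scaling over all probes. Tpi1, triose phosphate isomerase, and Pfkfb2 had probes that gave different calls, with Pfkfb2 at -0.14 (adjusted p = 0.30) and -0.79 (adjusted p = 9.6e-07).

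Slc2a3, the glucose transporter GLUT3, was the gene of this list that differed between isoform A and mock, by -0.91 ± 0.14 (adjusted p = 0.0012), lower in 4 of 4 mice. It was also lower with isoform B than in mock, by -0.85 ± 0.14 (adjusted p = 0.0038), as was Aldoc, the brain-type aldolase, by -0.80 ± 0.17 (adjusted p = 0.0195). Of 15 tested genes of the list, 1 passed for isoform A and 2 for isoform B, beside 4.12% and 1.48% of all probes. In mock cells Slc2a3 stood 1.57 ± 0.14 above unstimulated cells, and both isoform comparisons share those mock arrays. With the mouse as a block, 2 genes of the list were lower with isoform A (Slc2a3 and Slc2a1, the transporter GLUT1) and 4 with isoform B (these, Aldoc and Tpi1), and Slc2a6, a further transporter, made 7 that rose on stimulation of isoform A cells. Of all 12344 probes, the block called 947 for isoform A and 432 for isoform B against mock, beside 509 and 183 without it. On stimulation of isoform A cells it called 8586, beside 8146 without it.

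Known HIF targets outside glycolysis were read beside Hif1a. Of 13 tested, 8 rose and 3 fell with isoform A on stimulation, with a median of 0.61, beside 31% of all probes higher and 34.9% lower. Ndrg1, a stress-response gene, rose by 3.74 ± 0.11, Hmox1, haem oxygenase, by 2.87 ± 0.17, and Vegfa, the angiogenic growth factor, by 2.35 ± 0.12, while Pdk1, which restrains pyruvate dehydrogenase, fell by 2.60 ± 0.12. Against mock, Vegfa was lower with isoform A by -0.82 ± 0.12 (adjusted p = 0.00096), Ddit4, an inhibitor of mTORC1, by -0.70 ± 0.12 (adjusted p = 0.0034) and Pdk1 by -0.64 ± 0.12 (adjusted p = 0.0072). Egln3, a prolyl hydroxylase that marks HIF-1α for decay, was higher by 0.72 ± 0.16 (adjusted p = 0.0142). Of the 13 tested genes, 3 were thus lower and 1 higher, beside 4.12% of all probes called. The other detected probes gave -0.28 for Vegfa (adjusted p = 0.48) and 0.19 for Egln3 (adjusted p = 0.81). The same 3 genes (Vegfa, Ddit4 and Pdk1) were lower with isoform B than in mock, by -0.98, -0.74 and -0.73, against the same mock arrays. Their log2 differences between isoform A and isoform B did not pass. Of all probes, 1.48% were called for isoform B against mock. With the mouse as a block, Hmox1 was higher than in mock with isoform A (0.44, adjusted p = 0.0241) and isoform B (0.42, adjusted p = 0.0476), and Adm, the vasodilator adrenomedullin, was higher after stimulation of isoform A cells (0.26, adjusted p = 0.0452).

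**Figure D4:**
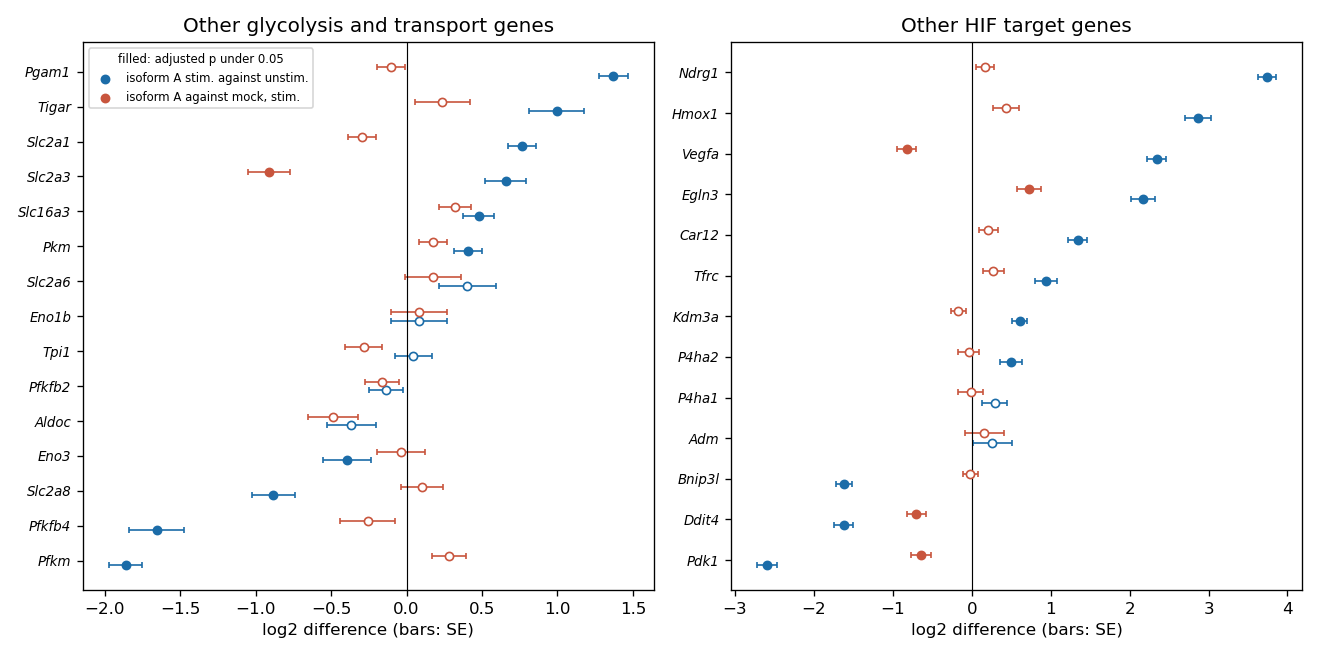
Log2 difference with SE (horizontal axis) of 15 other glycolysis and transport genes on the left and 13 other HIF target genes on the right, each gene by its brightest detected probe (vertical axis). Blue is stimulated against unstimulated isoform A cells, red is isoform A against mock in stimulated cells, and filled points passed the test. Slc2a3 on the left and Vegfa, Ddit4 and Pdk1 on the right have filled red points below 0, and Egln3 lies above 0 at 0.72.

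Among 8 tested regulators of HIF, 3 rose and 1 fell with isoform A on stimulation, beside 31% of all probes higher and 34.9% lower. Egln3 of this list and Pdk1 of the pyruvate list below were also counted among the HIF targets, so the counts of these lists share genes. Egln3 rose by 2.17 ± 0.16, Hsp90aa1, a chaperone that holds HIF-1α, by 1.37 ± 0.22 and Vhl, the ubiquitin ligase subunit that binds hydroxylated HIF-1α, by 0.38 ± 0.16 (adjusted p = 0.0499), while Egln1, the main HIF prolyl hydroxylase, fell by 0.72 ± 0.16. The other detected probe of Egln3 gave 0.57 (adjusted p = 0.10). Against mock, Egln3 was the regulator that passed for isoform A, and 0 of 8 passed for isoform B, beside 4.12% and 1.48% of all probes. With the mouse as a block, Egln1 was also lower with isoform A, by -0.54 ± 0.16 before the block (adjusted p = 0.0712, and 0.0039 with it), and with isoform B, by -0.38 ± 0.16 (adjusted p = 0.37, and 0.0476 with it). Its other detected probes gave -0.21 and -0.02 for isoform A and -0.02 and -0.20 for isoform B. Of 9 genes for the fate of pyruvate, 4 rose and 4 fell, beside the same shares of all probes. Of those counted as falling, Pdhb, a pyruvate dehydrogenase subunit, had probes at -0.29 (adjusted p = 0.0459) and 0.27 (adjusted p = 0.21). Pdp1, a phosphatase that activates pyruvate dehydrogenase, rose by 1.39 ± 0.15, and Pdha1, a subunit of that enzyme, and Cs, citrate synthase, fell by 1.01 ± 0.085 and 0.91 ± 0.12.

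In the pentose phosphate pathway, which branches from glucose 6-phosphate, 0 of 6 rose and 3 fell with isoform A. They were H6pd, the endoplasmic reticulum dehydrogenase, by -1.98 ± 0.16, Taldo1, transaldolase, by -0.78 ± 0.10 and Pgls, the lactonase, by -0.59 ± 0.11. None of these 6 passed between isoform A or B and mock, beside 4.12% and 1.48% of all probes. Of 10 MYC and mTORC1 genes, 4 rose and 4 fell on stimulation with isoform A. Both these counts and those of the pentose phosphate genes stand beside 31% of all probes higher and 34.9% lower. Max, the partner of MYC, counted as falling at -0.39 (adjusted p = 0.00033), and its other detected probe gave 0.26 (adjusted p = 0.16). Myc rose by 3.03 ± 0.14 and Rheb, which activates mTORC1, by 1.15 ± 0.12, while Txnip, which restrains glucose uptake, fell by 4.89 ± 0.16. Irf4, a receptor-induced factor, rose by 2.66 ± 0.15 and was the gene of this list higher with isoform A than in mock, by 0.55 ± 0.15 (adjusted p = 0.0427). It was 1 of 10 tested genes called against mock, beside 4.12% of all probes. With the mouse as a block, Myc (0.34, adjusted p = 0.0232) and Mtor (0.38, adjusted p = 0.0306), the kinase of mTORC1, were higher as well.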

How the data were processed

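Total RNA of 16 samples (4 mice in 4 groups) was read on 1-colour Illumina bead arrays. The deposited probe intensity values were linear and not normalized, from GenomeStudio 2011.1 per the submitters' processing notes, with a deposited detection p-value per probe and array per the file headers. The authors' own value table, also deposited as intensity values, had an unstated normalization and was an alternative only. Here, normexp (limma 3.58.1 and statmod 1.5.0 under R 4.3.3) took the background from the detection p-values, arrays were quantile normalized, and an offset of 16 was set before log2. The 12344 probes of 25697 with detection p under 0.05 on at least 4 arrays were tested. All 16 arrays entered a limma model of 4 group means (12 residual degrees of freedom), 2-sided, with Benjamini-Hochberg adjustment over all probes. The code was checked on simulated data. Gene names came from the platform annotation (1719 probes were unnamed), and the brightest detected probe by mean stood for each gene.

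Mice pair the arrays, since arrays with the same replicate number in their titles carry the same mouse label. The replicate numbers in the sample descriptions differ from the titles for some samples, and the titles were used. After removal of group means the mean r of the 24 same-mouse pairs of arrays was 0.27, with a range of 0.11 to 0.40. Pairs of different mice in different groups had a mean of -0.09. Removing the group means ties that value to the same-mouse mean, so it is no separate evidence of pairing. The mouse as a block is given where it changed a call of a member's brightest probe, or of a gene of the pathway lists against mock or on stimulation of isoform A cells. The block called more of all probes against mock, 947 beside 509 for isoform A and 432 beside 183 for isoform B. From each list up to 4 genes with the largest passing differences in a comparison are named, plus genes whose probes disagree. The members and the gene lists were chosen with earlier results of these data known. Alternatives were no background correction, median scaling, offset 50, other detection filters, the authors' table, the block, only the groups compared, gene-level tests and leaving out each array.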

Additional observations from a re-analysis of the deposited data

Results flagged for a closer look

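In 3 of 48 groups of 4 arrays (12 probes in 4 groups), 1 array lay apart from the others by the gap test for small groups, which by chance does so in about 1 of 20 groups. The unstimulated array of mouse 2 had a Hif1a level of 8.555, beside 8.33 to 8.35 in the other mice. The Ldha level of the unstimulated array of mouse 1 was 13.67, beside a tied 13.68 on the other arrays, a tie that quantile normalization gives to probes of equal rank. The mock array of mouse 3 had an Ldha level of 13.72, beside 13.60 to 13.62.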

How the results depend on the processing

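Of 1290 values of single members recomputed in other settings, 1231 kept their direction and their side of the threshold or changed sign with neither value passing (54 of them). The 5 that reversed did so under median scaling over tested probes, which was chosen after seeing the data: Gapdh to 0.6208 and Ldha to 0.659 with isoform A against unstimulated cells, Ldha to 0.7047 in mock cells, and Gapdh to 0.5758 and Ldha to 0.6226 with isoform B. In that setting 8 members were higher with isoform A and 7 in mock cells than in unstimulated cells, and 1 was higher with isoform A than in mock. Median scaling over all probes gave 2 higher and 1 lower on stimulation of isoform A cells, 0 lower with isoform A against mock, and 151 and 80 probes called for isoform A and isoform B against mock. With no background correction, 1 member was lower on stimulation of isoform A cells, 1 was higher and 2 were lower with isoform A than in mock, and 38 probes differed between the isoforms. Offset 50 gave 1 higher and 2 lower against mock and 29 probes between the isoforms, and the filter for detection on all arrays gave 1 higher. The authors' table gave 1 lower on stimulation and 6 probes between the isoforms. In models of only the groups compared, 1 member was lower on stimulation, 0 were lower with isoform A than in mock, and 178, 77 and 0 probes were called for isoform A against mock, isoform B against mock and isoform A against isoform B. With the mouse as a replicate block these counts were 947, 432 and 46, with 1 member higher and 2 lower with isoform A than in mock and 1 lower with isoform B. Leaving out single arrays gave 239 to 644 probes for isoform A against mock (without isoform A of mouse 3, 239, with 0 members lower, and otherwise 1), 111 to 155 for isoform B against mock and 5 to 27 between the isoforms. Members higher than in unstimulated cells then numbered 4 to 5 with isoform A and in mock cells. The cause of these changes was not tested. Dim probes (Pgk1 and the second Pfkl probe) limit what can be said of them.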
